A study of Homo sapiens with 6 samples.

Results

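Expression of 6 S100 genes (S100A8, S100A9, S100A4, S100A6, S100A10 and S100A11), 3 annexin genes (ANXA1, ANXA2 and ANXA5) and SH3BGRL3 was followed through a METTL16 knockout and its rescue. These 10 genes were picked by name from 15059 genes in the deposited table, with differences in the same libraries already known, and all 10 passed the filter on low values that left 12734 genes for testing. The cells were NOMO-1, a line of human acute myeloid leukaemia, and total RNA freed of ribosomal RNA was sequenced in 3 groups with 2 libraries a group. Control cells carried the non-targeting guide sgNS and an empty vector (EV), knockout cells carried the guide sgMETTL16 and EV, and rescue cells carried sgMETTL16 on top of introduced METTL16 (OE-METTL16). Cells of every group had thus been transduced with a vector and a guide and kept in puromycin, so no untransduced cells were compared. Nothing in the labels says whether the cells were clones or mixed populations, which site the guide cuts, or whether the 2 libraries of a group came from separate cultures, so each p-value covers just the spread among libraries, which may be technical. METTL16, an RNA methyltransferase, averaged 9.76 ± 0.188 (SD, n = 2) in control and was at 5.94 ± 0.154 in knockout, with 12.2 ± 0.123 in rescue.

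S100 proteins are small EF-hand proteins that bind calcium and mostly work as dimers. S100A8 and S100A9 pair to form calprotectin, which neutrophils and monocytes store in their cytosol in large amounts and release in inflammation. Annexins bind acidic phospholipids of membranes when calcium is raised, and some annexins carry S100 dimers as partners, ANXA2 with S100A10 and ANXA1 with S100A11. SH3BGRL3, a small thioredoxin-like protein, belongs to neither family.

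All 10 genes had their highest signal in the knockout libraries and lower signal in rescue, and no knockout library overlapped a control or rescue library for any of them. Over all tested genes both knockout libraries lay above both control libraries in 43.4%, and above both rescue libraries in 38.1%. The genes were not equally changed. S100A8 stood at 5.46 times its control level in knockout, S100A9 at 2.83, ANXA1 at 2.32, ANXA2 at 2.09 and S100A4 at 2.03 times, whereas S100A10, S100A6, ANXA5 and S100A11 stood at 1.28 to 1.43 times and SH3BGRL3 at 1.69 times. The signal is the RSEM abundance of the deposited table, a value per transcript length, so levels of different genes can be set side by side. In bulk libraries fewer cells of a type and less RNA per cell cannot be told apart.

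The sequence before the transcription start was read for the 10 genes. They were chosen with differences in these libraries known, so the way motifs fall among them is a description with no test. RefSeq promoter entries (GRCh38.p14) were found for all 10 genes. The letters TATAAA, the core of a TATA box, began 29 or 31 bases before an annotated start in S100A8, S100A9, S100A4, ANXA1 and ANXA2, which are also the 5 genes with a log2 difference of at least 1 in knockout. The other 5 genes had no TATAAA on either strand in the 250 bases before the start. The 120 bases before the start are shown for the 5 genes with TATAAA and for S100A6 and S100A11, 2 of the members without it. Each is read 5′ to 3′ on the strand of the gene, and capitals mark TATAAA and, on either strand, GGGCGG, the core of a GC box bound by Sp1.
S100A8 (chr1:153391074-153391193, minus strand): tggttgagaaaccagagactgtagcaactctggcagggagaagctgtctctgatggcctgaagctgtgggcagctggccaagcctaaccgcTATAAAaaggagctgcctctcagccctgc
S100A9 (chr1:153357734-153357853, plus strand): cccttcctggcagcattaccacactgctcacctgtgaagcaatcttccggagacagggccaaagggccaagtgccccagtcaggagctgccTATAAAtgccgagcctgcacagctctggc
S100A4 (chr1:153545807-153545926, minus strand): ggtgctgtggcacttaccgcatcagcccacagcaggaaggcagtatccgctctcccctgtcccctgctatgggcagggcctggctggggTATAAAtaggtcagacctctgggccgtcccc
ANXA1 (chr9:73151745-73151864, plus strand): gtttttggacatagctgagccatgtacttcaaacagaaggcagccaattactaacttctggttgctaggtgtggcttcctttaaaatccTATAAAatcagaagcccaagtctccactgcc
ANXA2 (chr15:60397987-60398106, minus strand): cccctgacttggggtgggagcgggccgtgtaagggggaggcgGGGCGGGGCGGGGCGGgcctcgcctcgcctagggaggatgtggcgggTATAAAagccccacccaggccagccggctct
S100A6 (chr1:153535992-153536111, minus strand): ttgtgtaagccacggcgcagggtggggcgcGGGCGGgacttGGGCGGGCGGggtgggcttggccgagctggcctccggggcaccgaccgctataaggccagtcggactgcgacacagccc
S100A11 (chr1:152037005-152037124, minus strand): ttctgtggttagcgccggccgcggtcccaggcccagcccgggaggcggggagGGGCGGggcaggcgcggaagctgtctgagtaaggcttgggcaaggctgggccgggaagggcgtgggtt

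S100A8 has 3 annotated starts, and the one shown was chosen for its TATAAA. The next start downstream has the same letters 126 bases before it, and the farthest upstream start has none. In S100A6 the related letters TATAAG began 30 bases before the start, a match looked up after the sequence was seen. Anywhere in the 250 bases and on either strand, TATAAG was present in 5.03% of all entries. Its share near that position alone was not counted. On the gene's strand and beginning 35 to 25 bases before a start, a window set after these matches were seen, TATAAA was present in 761 of 35116 promoter entries (2.17%). Over all 250 bases and both strands it was present in 10.7%. GGGCGG was present in 7 of the 10 genes (42.6% of all entries), among them all 5 without TATAAA, and S100A8, S100A4 and ANXA1 lacked it. TTGCNNAA, a C/EBP-type motif, was present before S100A11 and ANXA1 (9.05% of all entries), and TGANTCA, the AP-1 motif, before ANXA2 (6.57%). GAGGAA, a PU.1-type motif, was present before ANXA1, S100A9 and 2 of the 3 starts of S100A8 (23.6% of all entries). Both strands were searched, and no match of one motif shared bases with a match of another in these promoters. A match describes the letters and does not show that a factor binds there.

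**Figure D1:**
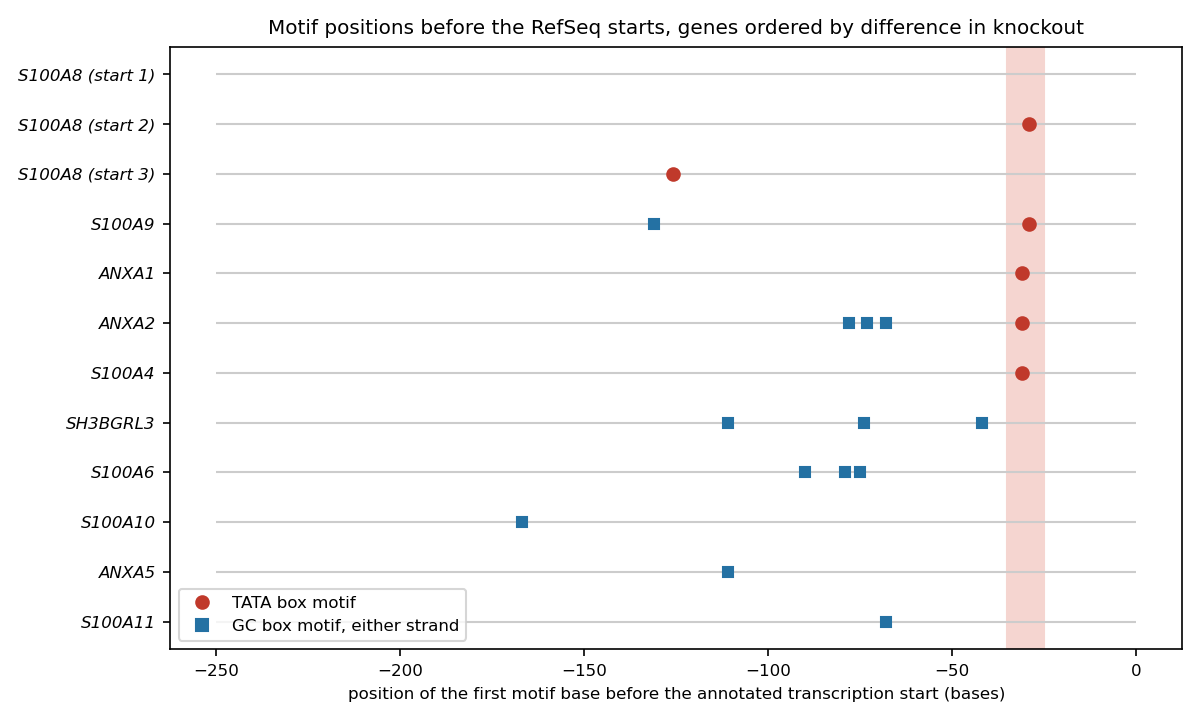
Positions of the TATA box motif (circles) and the GC box motif (squares) in the 250 bases before each RefSeq start, in bases before the start, with genes ordered from the largest (top) to the smallest log2 difference between knockout and control and the 35 to 25 base window shaded. The 5 genes with the motif at 29 or 31 bases are the 5 upper genes, a description of genes chosen with differences in these libraries known.

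The same window was described across the table. Among 9121 tested genes with a promoter entry, 183 had TATAAA in the window. With the 10 genes left out, 34.3% of the other 178 passed the test as higher in knockout, against 27.6% of the 9111 genes with an entry. In the same 178 genes 2.81% (5 genes) had a log2 difference of at least 1, against 0.483% of the 9111. Lower signal in rescue than in knockout was called for 29.2% of the 178 and for 16.5% of the 9111. The median log2 difference between knockout and control was 0.10 in the 178 and 0.07 in the 9111. Genes that passed the filter on low values only through the knockout libraries were kept in both sets, and such genes tend to be higher in knockout. These shares are descriptions with no test.

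S100A8 (ENSG00000143546, chromosome 1, 153390032 to 153391188, minus strand, GRCh38) is the smaller calprotectin chain. Its signal was 5.21 and 5.36 in control, 30.5 and 27.3 in knockout, with 11.7 and 12.6 in rescue. The 3 groups did not overlap, and the spread within knockout was the widest. S100A9 (ENSG00000163220, chromosome 1, 153357854 to 153361027, plus strand), its partner and the chain that holds the dimer's transition-metal site together with S100A8, was measured at 17.6 and 19.9 in control, 52.6 and 53.1 in knockout, and 27.8 and 31.9 in rescue. Its groups were separate too. On the log2(signal + 1) scale S100A8 differed between knockout and control by 2.25 (SE 0.0829) and S100A9 by 1.45 (SE 0.078). Adding 1 to the signal shrinks the log2 difference of S100A8, the least abundant of the 10, more than that of the others.

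The balance of the transcripts of the calprotectin chains differed between groups. The ratio of S100A8 to S100A9 signal was 0.297 and 0.270 in control, 0.581 and 0.513 in knockout, and 0.422 and 0.397 in rescue. S100A9 was thus the more abundant transcript in every library, and the gap was narrowest in knockout. S100A8 rested on the fewest reads. From steps among the values of short transcripts it had an estimated 59 reads in its lowest library, a counting error of 13.04%, where S100A9 had an estimated 235 reads and the other 8 genes 285 or more.

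**Figure D2:**
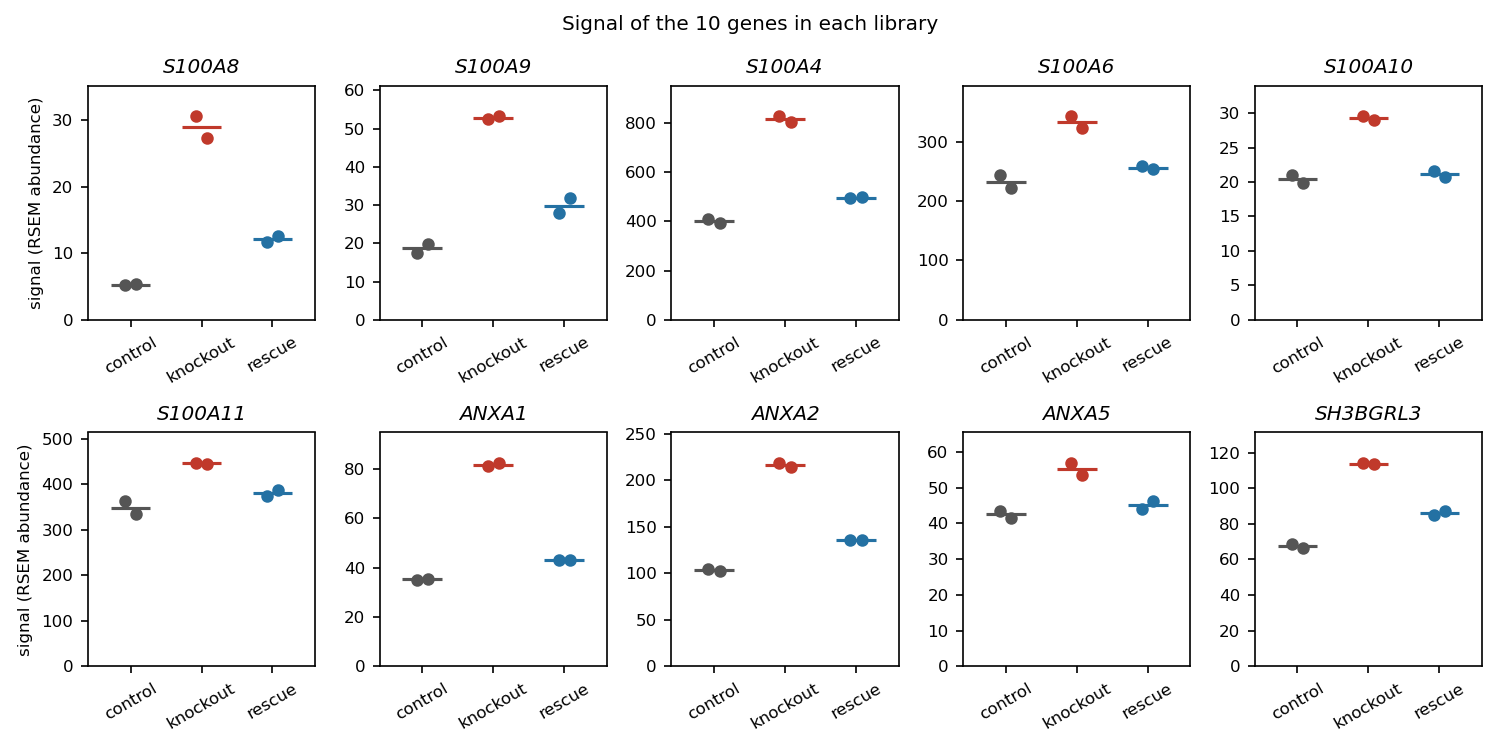
Signal (RSEM abundance, linear axis from 0) of each of the 10 genes in the 2 control, 2 knockout and 2 rescue libraries, with points for libraries and lines for group means. In every panel both knockout points lie above all other points, from S100A8 at 27.3 to 30.5 against 5.21 to 12.6, to S100A11 at 445 to 447 against 334 to 387.

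S100A4 (ENSG00000196154, chromosome 1, 153543613 to 153550136, minus strand) is a regulator of non-muscle myosin and cell movement, and was the most abundant of the 10 transcripts in every group. Its signal was 409 and 393 in control, 826 and 803 in knockout, and 494 and 497 in rescue, with no overlap between groups. It made up 31.5% ± 0.375 (SD, n = 2) of the summed signal of the 10 genes in control, 37.5% ± 0.0793 in knockout and 32.9% ± 0.148 in rescue. S100A6 (ENSG00000197956, chromosome 1, 153534599 to 153536244, minus strand), known as calcyclin, lies close to it in the same gene cluster. S100A6 was measured at 244 and 222 in control, 343 and 323 in knockout, and 259 and 254 in rescue. The rescue libraries of S100A6 lay just above the higher control library. The ratio of S100A4 to S100A6 was 1.73 ± 0.0703 (SD, n = 2) in control, 2.45 ± 0.0514 after knockout and 1.93 ± 0.0373 in rescue, so this pair did not keep their proportion. The log2 difference between knockout and control was 1.02 (SE 0.0499) for S100A4 and 0.52 (SE 0.0577) for S100A6.

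S100A10 (ENSG00000197747, chromosome 1, 151982915 to 151994390, minus strand), also called p11, differs from the other S100 proteins in that its EF-hands have lost calcium binding. It forms a complex with ANXA2 that docks plasminogen activators and membrane proteins. Its signal was 21.0 and 19.8 in control, 29.5 and 28.95 in knockout, and 21.6 and 20.7 in rescue. Rescue overlapped control for this gene, and for no other of the 10. S100A11 (ENSG00000163191, chromosome 1, 152032506 to 152047907, minus strand), a partner of ANXA1, was measured at 363 and 334 in control, 447 and 445 in knockout, and 374 and 387 in rescue. It had the smallest log2 difference between knockout and control of the 10 genes at 0.36 (SE 0.054), against 0.50 (SE 0.0678) for S100A10.

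ANXA1 (ENSG00000135046, chromosome 9, 73151757 to 73170393, plus strand) limits inflammation through formyl peptide receptors when it is released from myeloid cells. Its signal was 35.0 and 35.4 in control, 81.1 and 82.4 in knockout, and 43.0 in both rescue libraries. ANXA2 (ENSG00000182718, chromosome 15, 60347134 to 60402883, minus strand), which links membranes to actin and recruits plasminogen, was measured at 104 and 103 in control, 218 and 214 in knockout, and 135 in both rescue libraries. For both annexins the replicates nearly coincided and the 3 groups did not overlap, with rescue nearer to control than to knockout. ANXA5 (ENSG00000164111, chromosome 4, 121667955 to 121697113, minus strand), known for its binding to phosphatidylserine on dying cells, moved less. Its signal was 43.4 and 41.6 in control, 56.9 and 53.5 in knockout, and 43.9 and 46.2 in rescue. The log2 difference between knockout and control was 1.19 (SE 0.0568) for ANXA1, 1.05 (SE 0.0507) for ANXA2 and 0.37 (SE 0.0619) for ANXA5.

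The processed copies ANXA2P1 and ANXA2P2 are nearly identical in sequence to ANXA2, and reads may have been divided among them. ANXA2P2 had a signal of 8.19 ± 1.57 (SD, n = 2) in control, 15.8 ± 1.19 after knockout and 8.79 ± 0.0731 in rescue, and ANXA2P1 stayed under 1 in every library. Both are low beside ANXA2. In rescue ANXA2P2 lay within the control values while ANXA2 lay above its own.

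Annexin and S100 partners did not keep their proportions. The ratio of S100A10 to ANXA2 was 0.197 ± 0.00601 (SD, n = 2) in control, 0.135 ± 0.000161 after knockout and 0.156 ± 0.00505 in rescue. The ratio of S100A11 to ANXA1 was 9.89 ± 0.662 in control, 5.45 ± 0.0793 after knockout and 8.85 ± 0.197 in rescue. In both pairs the annexin gained on its S100 partner in knockout, and the knockout libraries lay outside the range of the other libraries. Between the annexins the ratio of ANXA2 to ANXA5 was 2.44 ± 0.0463 in control, 3.92 ± 0.114 after knockout and 3.01 ± 0.106 in rescue. SH3BGRL3 (ENSG00000142669, chromosome 1, 26279176 to 26281522, plus strand) was measured at 68.9 and 66.3 in control, 114 in both knockout libraries, and 84.8 and 87.3 in rescue, a log2 difference of 0.74 (SE 0.0542) between knockout and control.

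**Figure D3:**
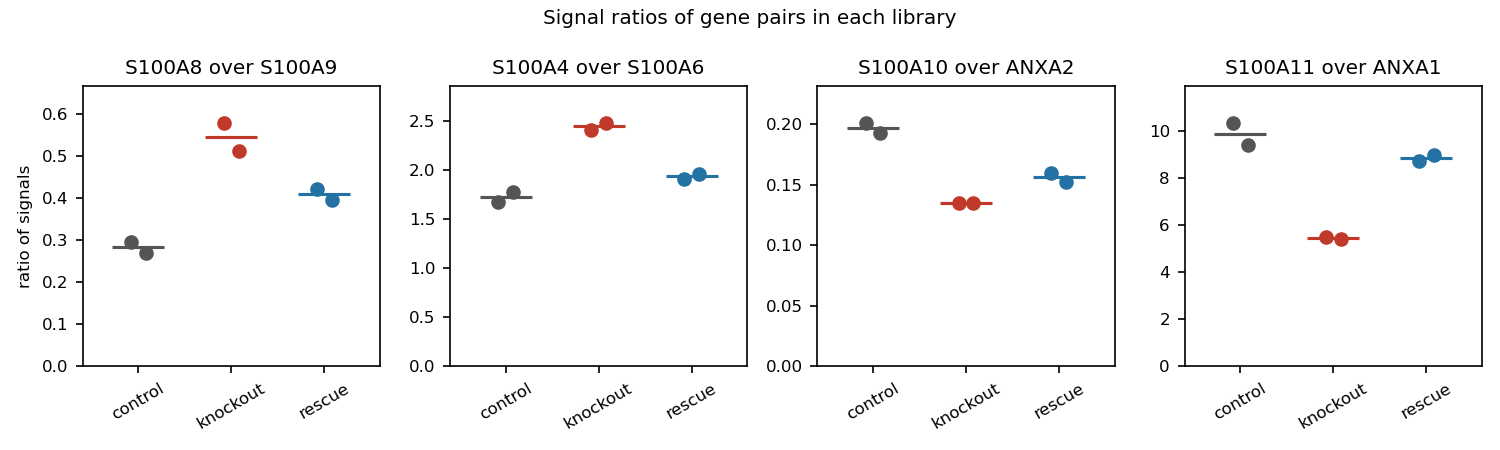
Ratio of signals within 4 gene pairs in each of the 6 libraries (linear axes from 0, points for libraries, lines for group means). S100A8 gained on S100A9 and S100A4 on S100A6 in knockout, and S100A10 lost against ANXA2 and S100A11 against ANXA1, with rescue between the other groups in each pair.

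By level in control the order was S100A4, S100A11, S100A6, ANXA2, SH3BGRL3, ANXA5, ANXA1, S100A10, S100A9 and S100A8. Of the neighbours in that order, S100A10 and S100A9 overlapped between libraries, and the other neighbours were separate. In knockout ANXA1 and S100A9 each moved up 1 place, and S100A8 at 28.9 ± 2.31 (SD, n = 2) overlapped S100A10 at 29.2 ± 0.397. In rescue S100A9 stayed above S100A10, and the other places were as in control. In control S100A4 stood at percentile 98.9 of the levels of all tested genes and S100A8 at percentile 32.9. The 6 S100 genes summed to 1027 ± 46.8 in control, 1704 ± 33.7 after knockout and 1195 ± 9.97 in rescue, and the 3 annexins to 181 ± 2.11, 353 ± 4.68 and 223 ± 1.60.

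Between knockout and control all 10 genes were higher at an adjusted p under 0.05 in limma, where 26.2% of all tested genes were and 39.7% were called in either direction. The genes were chosen from differences in these 6 libraries, and the rule that lists them names no comparison, so no p is given for them here or in the comparisons with rescue, and nothing is read from the counts of calls. Their median log2 difference was 0.88, against 0.07 over all 12734 genes. Among all tested genes 3333 were called higher and 1723 lower, and 3080 and 3208 when the libraries were brought to equal medians. The log2 differences of the 10 genes stayed above 0 in each of the 14 alternative settings. These settings use the libraries that the genes were chosen from, so this is no separate support. Ranked from the highest log2 difference down, S100A8 was at 2 of all tested genes and S100A11 ranked 1852, with S100A9 at 14, ANXA1 at 40, ANXA2 at 59 and S100A4 at 73 between them. A log2 difference of at least 1, found in 0.636% of tested genes, fell between S100A4 at 1.02 and SH3BGRL3 at 0.74 in this list.

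The comparison of rescue with knockout asked whether the transcripts were lower where METTL16 had been added. It shares the knockout libraries with the comparison above, so the opposite sign is partly built in. All 10 genes were lower in rescue and past the threshold, where 15.9% of tested genes were called lower. Of the 3333 tested genes called higher in knockout than in control, 1913 were also called lower in rescue than in knockout. The log2 differences were -1.18 for S100A8 (SE 0.0829), -0.91 for ANXA1 (SE 0.0568) and -0.81 for S100A9 (SE 0.078). S100A4 differed by -0.72 (SE 0.0499) and ANXA2 by -0.67 (SE 0.0507). These 5 genes had the largest differences here as well. S100A10 differed by -0.45, SH3BGRL3 by -0.40 and S100A6 by -0.38, followed by ANXA5 at -0.29 and S100A11 at -0.23. The call for ANXA5 was lost without rescue replicate 1, and that for S100A11 without rescue replicate 1 and without a trend in limma. The median over the 10 genes was -0.56, against -0.01 over all tested genes.

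Rescue did not bring every gene to its control level. Measured on the linear signal, the part of the excess over control that was left in rescue ran from 8.15% for S100A10 and 16.7% for ANXA1 to 33.2% for S100A11 and 39.9% for SH3BGRL3. S100A8 kept 29.2%, S100A9 32.5%, ANXA2 28.3%, S100A6 23.3%, S100A4 22.8% and ANXA5 19.96%. S100A8 and ANXA1, both with large differences in knockout, therefore ended at different distances from control, at 2.30 and 1.22 times its level. The rescue cells were a parallel group and not a later time of the knockout cells. The parts of the excess left were not corrected for the median difference between rescue and control over all tested genes, 0.06 on the log2 scale. S100A11, at 0.13 on that scale, was not past the threshold between rescue and control.

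Rescue and control were compared directly, with the control libraries shared. S100A8 was higher in rescue by 1.07 on the log2 scale (SE 0.0829), S100A9 by 0.64 (SE 0.078) and ANXA2 by 0.38 (SE 0.0507). SH3BGRL3 was higher by 0.34 (SE 0.0542) and S100A4 by 0.30 (SE 0.0499). These 5 of the 10 genes were past the threshold, where 0.228% of tested genes were called higher and 0.055% lower. ANXA1 (0.28), S100A6 (0.14), S100A11 (0.13), ANXA5 (0.08) and S100A10 (0.05) were not. In 9 of the 10 genes both rescue libraries lay above both control libraries, as they did in 34.6% of all tested genes. The median log2 difference was 0.29 over the 10 genes and 0.06 over all tested genes. The call for S100A8 was kept in each of the 14 alternative settings. It alone was called when the libraries were brought to equal medians, without a trend, or without control replicate 2, the library with the lowest median signal (9.42, against 10.2 to 10.6 in the others). Without control replicate 1, S100A8 and ANXA2 were called.

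**Figure D4:**
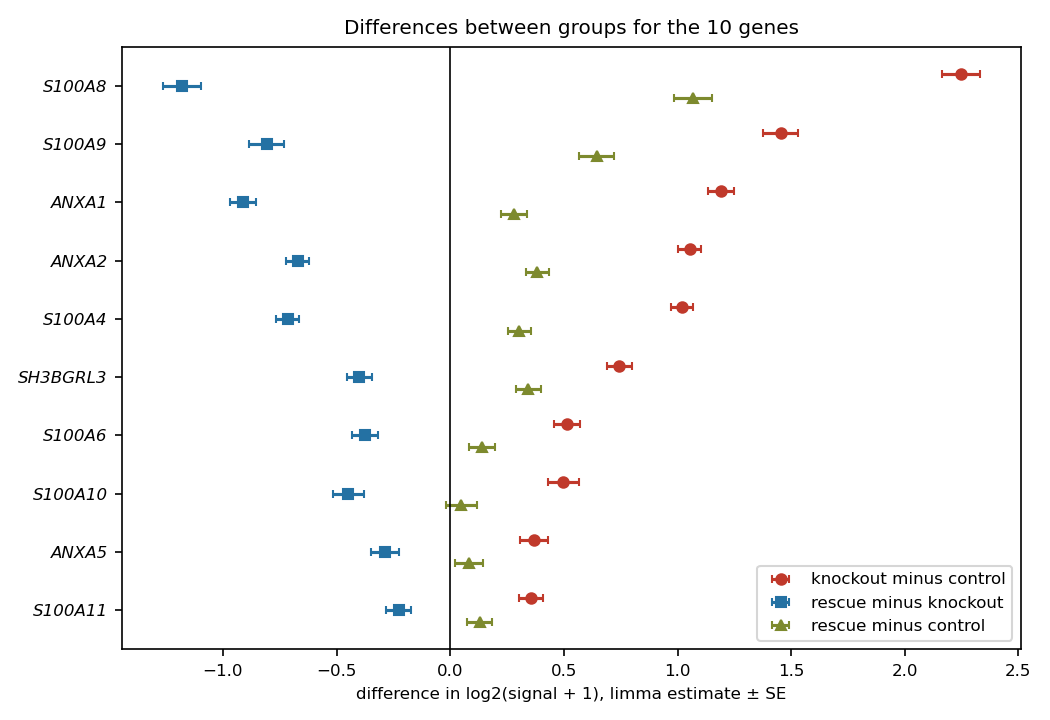
Differences in log2(signal + 1) between groups for the 10 genes, as limma estimates with bars of 1 SE, ordered by knockout minus control. Every knockout minus control value lies above 0 (0.36 to 2.25) and every rescue minus knockout value below 0 (-0.23 to -1.18), and rescue minus control lies nearest 0 for S100A10 at 0.05 and farthest for S100A8 at 1.07.

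The other S100 genes were weakly expressed, apart from S100P. Of 14 listed, 6 were found in the table and 4 passed the filter. S100B, a glial and melanocytic S100, rose from a control mean of 1.83 ± 0.186 (SD, n = 2) to 3.21 ± 0.444 in knockout (log2 0.57, adjusted p = 0.00247), and S100A13, which helps export of growth factors lacking a signal peptide, from 3.04 ± 0.134 to 4.51 ± 0.104 (log2 0.45, adjusted p = 0.00411). Both were lower again in rescue, S100B at 2.23 ± 0.462 (adjusted p = 0.0287 against knockout) and S100A13 at 3.42 ± 0.488 (adjusted p = 0.0308). S100A1, a cardiac and muscle S100, had 1.14 ± 0.504 in control, 2.26 ± 1.39 after knockout and 0.998 ± 0.220 in rescue. It did not pass in knockout against control (adjusted p = 0.0617) and was lower in rescue than in knockout (log2 -0.64, adjusted p = 0.0421). Of these 3 calls between rescue and knockout, 0 were left without knockout replicate 1, and 1 without either control library or without rescue replicate 1. S100P, a ligand of the receptor RAGE, was near ANXA2 in level in control and nearly level across the groups. S100P averaged 122 ± 4.02 in control, 124 ± 6.53 after knockout and 122 ± 3.83 in rescue (log2 0.03, SE 0.0574, adjusted p = 0.723 for knockout against control).

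Annexins outside the 10 genes differed less in knockout than ANXA1 and ANXA2. On the log2(signal + 1) scale ANXA6 and ANXA9 differed about as much as ANXA5 at 0.37. Adding 1 shrinks the difference of ANXA9, with its low signal, more than those of ANXA5 and ANXA6. Of 10 listed, 5 were found in the table and tested, and 3 rose in knockout, where 26.2% of all tested genes did, with a median log2 difference of 0.19. ANXA6, a large annexin with a doubled core, rose from 104 ± 1.72 (SD, n = 2) to 137 ± 4.71 (log2 0.39, adjusted p = 8.02e-05) and was at 116 ± 2.46 in rescue (adjusted p = 0.00366 against knockout). ANXA11, which tethers RNA granules to lysosomes, rose by 0.19 (adjusted p = 0.024) and ANXA9 by 0.37 (adjusted p = 0.024). ANXA9 was near the filter's minimum signal of 1, at 1.25 ± 0.0605 in control and 1.92 ± 0.439 in knockout. ANXA7 (log2 0.10, adjusted p = 0.224) and ANXA4 (log2 0.05, adjusted p = 0.642) did not pass. ANXA6 and ANXA2 had like levels in control, at 104 each, and ANXA2 differed by 1.05 in knockout where ANXA6 differed by 0.39. SH3BGRL, the only other SH3BGR gene in the table, rose from 76.6 ± 5.66 to 101 ± 11.1 (log2 0.39, adjusted p = 0.00129) and was at 81.2 ± 4.62 in rescue. None of these 10 tested relatives passed between rescue and control in limma, where 0.228% of all tested genes were called higher and 0.055% lower. Of the 10 relatives 1 had an unadjusted p under 0.05, and the share of all tested genes under that p was not counted. Of the relatives, 1 other S100 gene was called in knockout without control replicate 2, and 1 annexin without control replicate 2 or without knockout replicate 1.

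**Figure D5:**
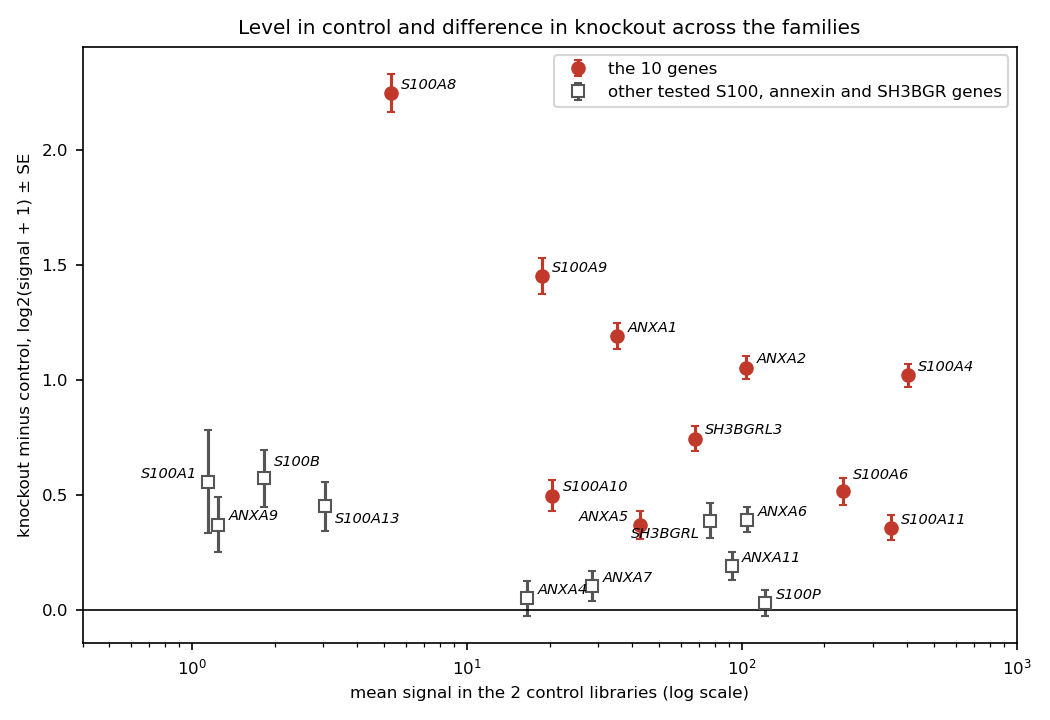
Mean signal in the 2 control libraries (log axis) against the difference in log2(signal + 1) between knockout and control (bars are 1 SE) for the 10 genes (filled circles) and the 10 other tested S100, annexin and SH3BGR genes (open squares). S100P, ANXA4 and ANXA7 lie near 0. On this scale the other relatives lie between 0.19 and 0.57, below S100A8, S100A9, ANXA1, ANXA2, S100A4 and SH3BGRL3. Adding 1 shrinks the differences of relatives with low signal, such as S100A1 (1.14 in control, 2.26 ± 1.39 in knockout) and S100B (1.83 and 3.21). By the ratio of means these S100 relatives exceed SH3BGRL3 at 1.69 times.

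The S100 members lie in the S100 cluster of chromosome 1, which also holds the epidermal differentiation genes. Between S100A10 and S100A1 (151982915 to 153632039) GENCODE release 29 has 90 genes, 64 of them protein coding, and 11 were in the table. Next to the 6 members and S100A1, S100A2, S100A3 and S100A13, the table had TCHH, which encodes trichohyalin of hair follicles. TCHH had a signal of 0.538 ± 0.00835 (SD, n = 2) in control, 1.19 ± 0.0594 after knockout and 0.621 ± 0.0665 in rescue, and it is given with no test because it passed the filter only through the knockout libraries. S100A13 and S100A1, described above, were the other tested genes of the cluster outside the list. ANXA1, ANXA2 and ANXA5 lie on chromosomes 9, 15 and 4, and SH3BGRL3 on the other arm of chromosome 1.

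Receptors and binding partners were listed by name. Of 18 genes, 16 were in the table and 14 tested, and 9 rose and 2 fell in knockout, with a median log2 difference of 0.45. Of all tested genes 26.2% rose and 13.5% fell, and their median was 0.07. Among the risen genes LY96, a co-receptor of TLR4, passed the filter only through the knockout libraries, and without it 8 of 13 rose, with a median of 0.43. The formyl peptide receptors that ANXA1 acts on both rose, FPR1 from 3.36 ± 0.199 (SD, n = 2) to 13.4 ± 1.53 (log2 1.72, adjusted p = 1.02e-07) and FPR2 from 14.2 ± 1.16 to 23.1 ± 1.48 (log2 0.66, adjusted p = 3.12e-05). In rescue FPR1 was at 4.96 ± 0.763 and FPR2 at 17.7 ± 1.07, both lower than in knockout (adjusted p = 2.73e-06 and 0.00383). CD36, a scavenger receptor that takes up fatty acids carried by S100A8 and S100A9, rose from 84.8 ± 5.68 to 126 ± 3.38 (log2 0.57, adjusted p = 7.25e-06), and MYH9, the non-muscle myosin heavy chain that S100A4 binds, from 112 ± 9.14 to 161 ± 3.30 (log2 0.52, adjusted p = 2.08e-05). TLR4, the signalling receptor for calprotectin, rose by 0.43 and AHNAK, a scaffold bound by the S100A10 and ANXA2 complex, by 0.64 (adjusted p = 0.000398 and 7.86e-05). AGER, which encodes RAGE, had 3.06 ± 0.386 in control and 3.14 ± 0.105 in knockout (adjusted p = 0.871). The genes that fell were HLTF (-0.30), a DNA translocase that binds the S100A10 complex, and PLGRKT (-0.36), a plasminogen receptor, with adjusted p of 0.00235 and 0.0209. LY96, TLR4, AHNAK, AGER, HLTF and PLGRKT were named after their values were seen. The genes called lower were 1 in number, in place of 2, without either control library or without knockout replicate 1. Between rescue and control none of the 14 passed in limma, where 0.228% of all tested genes were called higher and 0.055% lower. Of the 14 genes, 7 had an unadjusted p under 0.05. The share of all tested genes under that unadjusted p was not counted, and their median log2 difference was 0.06, so nothing is read from the 7.

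Other calcium sensors were compared as EF-hand and related genes outside these families. Of 17 tested, 10 rose and 1 fell in knockout, with a median log2 difference of 0.22. Over all tested genes 26.2% rose and 13.5% fell, with a median of 0.07. NUCB2, which encodes nucleobindin 2, rose by 0.73, CAPN1, a calpain protease, by 0.66, NUCB1 by 0.47 and PPP3R1, the regulatory subunit of calcineurin, by 0.38 (adjusted p = 5.64e-07 to 0.000114). SRI, which encodes sorcin, fell by 0.20 (adjusted p = 0.0306) and was named after its values were seen. Of the 17 genes, 6 were lower and 1 higher in rescue than in knockout, where 15.9% and 15.6% of all tested genes were. After quantile normalization 10 of the 17 were lower, with 2840 in place of 2022 lower over all tested genes. Between rescue and control none of the 17 passed in limma, where 0.228% of all tested genes were called higher and 0.055% lower. Of the 17 genes, 8 had an unadjusted p under 0.05. The share of all tested genes under that unadjusted p was not counted, and their median log2 difference was 0.06, so nothing is read from the 8. The call for SRI was lost without any 1 library other than control replicate 2, without a trend and with only the groups compared.

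Among 6 transcription factors known at the S100A8 and S100A9 genes, 4 rose and 1 fell in knockout. Of all tested genes 26.2% rose and 13.5% fell. CEBPA went from 89.6 ± 2.27 (SD, n = 2) to 122 ± 6.70 (log2 0.45, adjusted p = 4.09e-05), SPI1, which encodes PU.1, from 38.0 ± 3.63 to 50.6 ± 1.49 (log2 0.41, adjusted p = 0.000415), CEBPE from 11.3 ± 0.386 to 15.7 ± 1.23 (log2 0.44, adjusted p = 0.00157) and STAT3 from 10.7 ± 0.548 to 13.5 ± 0.0714 (log2 0.30, adjusted p = 0.00749). CEBPB fell by 0.24 (adjusted p = 0.0219) and CEBPD, near 1 in every group, did not pass, and both were named after their values were seen. The call for CEBPB was lost without control replicate 1, without either knockout library or without a trend. The difference of each factor was smaller than those of S100A8 and S100A9.

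NOMO-1 is a monocytic line, and 8 of 10 myeloid markers were in the table. Their summed signal was 148 to 161 in control, 263 to 266 in knockout and 192 to 194 in rescue. In knockout 7 of 8 rose, among them LYZ (log2 1.42), CD68 (0.97) and SPI1, where 26.2% of all tested genes rose. CSF1R, the receptor for macrophage growth factors, was at 0.849 ± 0.0450 (SD, n = 2) in control and 2.75 ± 0.226 in knockout and passed the filter only through the knockout libraries, and without it 6 of 7 rose. Between rescue and control LYZ, which encodes lysozyme, was the 1 marker called, higher in rescue by 0.85 (adjusted p = 7.45e-06). ITGAM, the integrin CD11b, was at 5.22 ± 0.606 (SD, n = 2) in control and 4.81 ± 0.380 in knockout and did not pass (adjusted p = 0.49), a gene named after its values were seen. CD14 and MPO were not analysed here. Lymphoid markers had 3 of 8 in the table, with a summed signal of 2.21 to 2.96 in control, 5.54 to 5.71 in knockout and 2.64 to 2.77 in rescue. CD2 was at 0.688 ± 0.0738 in control and 2.94 ± 0.118 in knockout, with no test given because it passed the filter only through the knockout libraries, while CD3D, CD3E and MS4A1 were not analysed here. Erythroid and megakaryocytic markers had 2 of 8 in the table and epithelial markers 2 of 6, with sums of 0.518 to 0.841 and 0.744 to 1.34 over all libraries, and none of 6 fibroblast markers was in it. The part of any other cell type in the results was not tested.

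Many genes followed the same pattern over the 6 libraries, so likeness in pattern did not single out partners. For each of the 10 genes, 445 to 1413 of 8818 other genes with a mean signal of at least 5 had a Pearson r above 0.95 with it on the log2(signal + 1) scale. The 6 points fall into 3 groups, and r is given as a description. The 3 closest to S100A8 were HCFC1R1, TOMM40L and BANF1 (r of 0.998 to 0.999), and those to S100A9 were KLHL2, HCFC1R1 and HERC5 (0.992 to 0.995). The closest to S100A4 were SLC1A4, CTSG and WDR1, to S100A6 CYBRD1, PLOD1 and ARHGAP1, to S100A10 STAC3, EIF2AK3 and CLU, and to S100A11 TPRG1L, DAG1 and RPN1. ANXA1 was followed by TBC1D8, TP53INP2 and RIPK1, ANXA2 by RNASE3, CALR and MMP2, ANXA5 by BLVRA, LMAN2 and TRIM21, and SH3BGRL3 by PDIA3, BANF1 and SIGLEC10. A high r does not mean a like size of difference. CTSG, which encodes the granule protease cathepsin G, averaged 314 in control, 1352 after knockout and 487 in rescue beside S100A4 at 401, 814 and 495, and HCFC1R1 had 7.75, 11.1 and 9.09 beside S100A8 at 5.29, 28.9 and 12.2.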

How the data were processed

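Total RNA depleted of ribosomal RNA was sequenced from 6 libraries. Alignment with STAR to GRCh38 and quantification with RSEM are named in the submitters' processing notes. Versions and annotation are not given in the sources used here. The authors deposited 1 signal per gene and library, an RSEM abundance whose kind (TPM or FPKM) no header states, and it was used as deposited. Read totals are not given. Depth was estimated from transcripts of up to 400 nt, whose signal times length (less 50 nt) should be whole multiples of 1 step per library. Of these values 74.3% to 87.5% fell within 0.15 of a multiple. The step was fitted to the same values, and a smaller step, which would give more reads, matched the control libraries equally well.

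The filter kept the 12734 genes that reached a signal of 1 in 2 or more libraries. limma 3.58.1 (R 4.3.3) was fitted with a trend on log2(signal + 1) over all 6 libraries, two-sided, with Benjamini-Hochberg adjustment over all genes tested and a threshold of 0.05. It was tested on simulated data. Groups came from the labels. The members, the 11 gene lists and the tests were chosen with earlier results of these data known. Named genes were the 10 members, METTL16, all tested relatives, up to 4 genes of smallest p per other list and the 3 most alike in pattern per member. Gene coordinates are from GENCODE release 29 and promoters from RefSeq (GRCh38.p14). Figures and counts were made with matplotlib 3.10.9, pandas 2.3.3 and numpy 2.4.6 in Python 3.11.15. The 14 alternatives varied the pseudocount, filter, scaling, trend, libraries fitted and replicate block.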

Additional observations from a re-analysis of the deposited data

How the results depend on the processing

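The 14 alternatives changed the pseudocount, filter, scaling, variance model, samples fitted or block, or left out 1 library. All 140 member differences between knockout and control kept direction and call, as did 137 of 140 between rescue and knockout, the other 3 being those of S100A11 and ANXA5 given above. Between rescue and control 17 of 140 lost and 5 (all ANXA1) gained a call. The number of members called higher there, 5, became 3 after quantile normalization, 1 with equal medians and 1 without a trend, and was 1 to 6 when 1 library was left out. Over all genes, calls between rescue and control (29 higher, 7 lower) became 17 higher without a filter, 194 and 31 when a mean signal of 5 was required, 19 and 14 after quantile normalization, 8 and 0 with equal medians, 5 and 4 without a trend, 217 and 71 with only the groups compared, and 6 to 220 and 1 to 73 when 1 library was left out. Leaving out 1 library gave 2185 (without knockout replicate 1) to 4120 higher between knockout and control and 1159 (without rescue replicate 2) to 2491 higher and 1216 (without knockout replicate 1) to 2534 lower between rescue and knockout. Genes lower in knockout than in control became 3187 after quantile normalization and 3208 with equal medians. The causes were not tested. Replicate numbers did not pair the libraries (correlation of same-numbered deviations -0.011, -0.048 and 0.101). The replicate block gave 299 higher and 83 lower between rescue and control, with 6 members called, and did not change the count of members called in the other comparisons. With 2 libraries a group and an estimated 59 reads for S100A8 at its lowest, precision is limited most for that gene.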
